A study of Mus musculus with 6 samples.

Results

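The genes described here encode the proteins of the small subunit of the cytosolic ribosome. They were taken from a count table of 24047 genes by symbol alone (Rps followed by a number, with or without a final a, l or x, plus Rpsa and Fau), and kept where at least 3 libraries held 10 or more counts. Of 33 matching symbols 32 were kept, 31 genes of the standard subunit and Rps27l, a paralog of Rps27. Rps4l fell just outside with 11, 5 and 9 counts in WT and 5, 3 and 7 in the other libraries. Rps27 stood just inside with 21, 18 and 10 against 11, 6 and 3. The symbols do not take in Rps3a1 and Gnb2l1 (Rack1), which also sit on the small subunit.

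RNA was sequenced from CD4 T cells of 3 wild-type (WT) mice and 3 mice labelled Srsf1-cKO, which carried Srsf1-flox/flox alleles and dLck.Cre, a Cre recombinase under the distal promoter of the T cell kinase gene Lck. All were 7 weeks old, of the strain B6.129. Naive spleen cells were stimulated for 72 h with anti-CD3 at 0.5 µg/mL and anti-CD28 at 1 µg/mL, antibodies that mimic antigen and costimulation, then for 4 h with PMA at 100 ng/mL and ionomycin at 1 µM, and the labels call them Th0 effector CD4 T cells. Both genotypes had the same culture, so neither group shows resting cells. The sources used here do not state which exons of Srsf1 the floxed alleles lose. Srsf1 mRNA, which encodes a splicing factor, stood at 495 ± 42.1 counts scaled to library size (CPM; SD, n = 3) in WT and at 514 ± 39.1 in libraries labelled Srsf1-cKO (log2 fold change 0.06, SE 0.12, edgeR adjusted p = 0.78). Since the targeted mRNA was not lower, the second group is named throughout by its label.

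The small subunit binds mRNA, scans for the start codon and decodes it, while the large subunit joins the amino acids. A standard subunit holds about 1 copy of each of its proteins, and many of them are needed to fold or mature its ribosomal RNA. Ribosomal protein mRNAs typically begin with a C inside a run of pyrimidines (C or T), the terminal oligopyrimidine or TOP motif, through which mTOR signalling and LARP1 govern their translation. Activated T cells are known to raise ribosome production strongly as they grow and divide.

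To show what the transcript starts of these genes look like, 7 stretches follow: 5 starts of the classic TOP form, and Rps26 and Rps27l, which the values below set apart. Each runs from 40 bases before to 20 bases from the start site annotated by RefSeq (build GRCm38.p6), read 5′ to 3′ on the strand of the gene, and capitals mark a run of at least 8 C or T bases that lies within 15 bases of the start.
Fau, chr19:6057907-6057966, plus strand: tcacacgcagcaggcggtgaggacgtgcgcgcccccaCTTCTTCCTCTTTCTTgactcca
Rps6, chr4:86857348-86857407, minus strand: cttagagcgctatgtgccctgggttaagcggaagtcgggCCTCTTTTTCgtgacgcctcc
Rps10, chr17:27635225-27635284, minus strand: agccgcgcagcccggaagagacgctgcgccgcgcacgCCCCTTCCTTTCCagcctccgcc
Rps18, chr17:33955646-33955705, minus strand: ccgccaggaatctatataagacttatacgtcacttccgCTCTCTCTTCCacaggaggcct
Rps27, chr3:90213629-90213688, minus strand: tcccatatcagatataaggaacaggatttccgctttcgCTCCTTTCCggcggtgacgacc
Rps26, chr10:128626487-128626546, minus strand: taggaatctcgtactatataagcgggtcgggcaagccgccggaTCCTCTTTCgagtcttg
Rps27l, chr9:66946046-66946105, plus strand: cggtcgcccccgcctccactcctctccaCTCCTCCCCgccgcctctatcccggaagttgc
In Fau, Rps6, Rps10, Rps18 and Rps27 the capital run spanned the start itself. In Rps26 it began just after the start, and in Rps27l it ended before it. Entries were matched by symbol for 24 of the 32 genes. A start C followed by at least 4 C or T bases was annotated in 7 of these 24 (29.2%; Rps27, Fau, Rps10, Rps18, Rps21, Rps15a and Rps6) and in 3.01% of all 27025 genes of the RefSeq set. A pyrimidine run of 8 within 15 bases of the start was held by 10 (41.7%), against 13.9% of all genes. CCGGAAG, the core motif of ETS factors, was found on either strand in 10 promoters (41.7%) against 9.93%, and AAGATGGC, the core of the YY1 motif, in 3 (12.5%) against 3.19%, each between 250 bases before and 50 after the start. TATAAA, searched on the gene's strand between 45 and 15 bases before the start, was in none of the 24 and in 2.57% of all genes. Among the 8024 genes with an entry that were also tested for expression below, CCGGAAG was in 22.5%, AAGATGGC in 5.92% and TATAAA in 1.28%. The start C was in 3.04% of these 8024 and the pyrimidine run in 14.7%. These are matches of letters, and annotated starts may lie some bases from the ones used in T cells.

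The mRNAs of the small subunit were lower as a block in the libraries labelled Srsf1-cKO. Of the 32 genes 28 fell (87.5%), 1 rose (Rps27l), and Rps27, Rps13 and Rps26 did not pass the test (edgeR, adjusted p under 0.05). Over all 10454 tested genes 18.4% were called, 9.5% lower and 8.9% higher. Among the 2323 tested genes at 100 CPM or more, the class that holds 31 of the 32, 13.5% fell. The median log2 fold change was -0.69, which leaves 61.9% of the WT level, against 0.01 for all tested genes and -0.06 for those at 100 CPM or more. Genes that fell had log2 fold changes from -1.04 to -0.46 (SD over the 28 genes 0.151) and adjusted p from 0.00734 to 0.0463. This spread is narrowed by the calling itself. Rps27 (-1.50), Rps13 (-0.34), Rps26 (-0.28) and Rps27l (0.62) lie outside it. Over all 32 genes the quartiles were -0.86 and -0.57. In 31 genes every library labelled Srsf1-cKO lay below every WT library, and in Rps27l every one lay above; over all tested genes such separation was found in 19.5% and 19.9%. The adjusted calls rested on 2 libraries: without WT replicate 1 the count of genes that fell was 3, and without Srsf1-cKO replicate 2 it was 1, while 28 genes were still lower at an unadjusted p under 0.05 in each case and the calls over all genes dropped to 195 and 234. The p-values measure the spread between the 3 mice of each group. In bulk RNA, fewer cells of a type and less RNA per cell cannot be told apart.

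**Figure D1:**
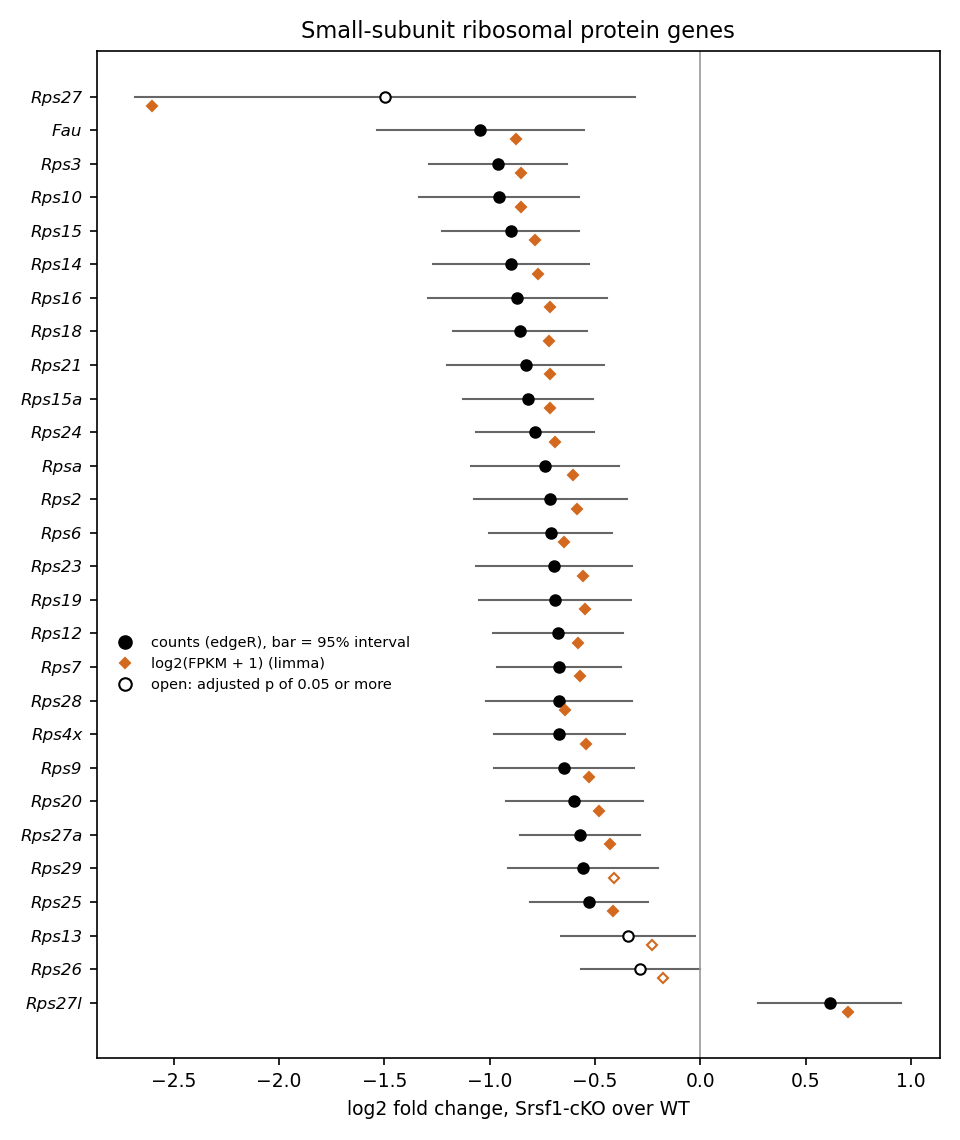
Log2 fold change (x axis, Srsf1-cKO over WT) of 28 of the 32 small-subunit genes (y axis), from counts in edgeR (circles, bars the 95% confidence interval) and on the log2(FPKM + 1) scale in limma (diamonds), with open symbols at an adjusted p of 0.05 or more. Rps27l alone lies above 0, the other genes drawn lie below it on both scales, and Rps27 has the widest interval.

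The libraries kept nearly the same order from gene to gene. Within WT, replicate 1 was highest for 30 genes and replicate 3 lowest for 29. Within the libraries labelled Srsf1-cKO, replicate 2 was lowest for 28. The median of the genes' log2 distances from their WT means was 0.18, 0.01 and -0.24 in WT replicates 1 to 3 and -0.60, -0.84 and -0.68 in Srsf1-cKO replicates 1 to 3. The gap between the nearest libraries of the 2 groups, WT replicate 3 and Srsf1-cKO replicate 1, was thus smaller than the range within WT.

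**Figure D2:**
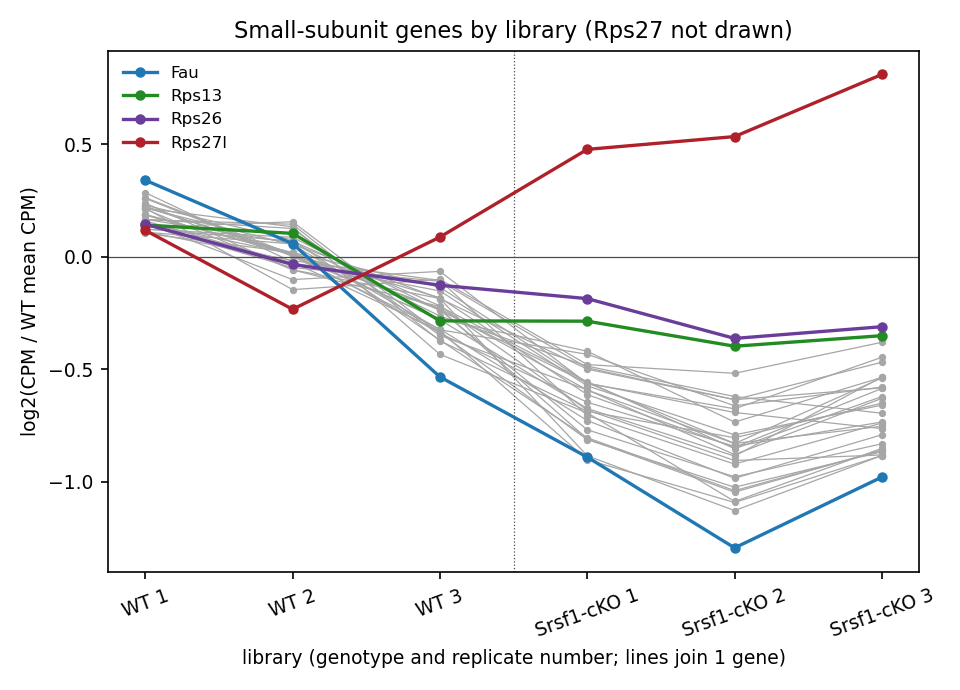
CPM of each small-subunit gene in each library over its WT mean (y axis, log2), where each line joins the values of 1 gene and Rps27 is not drawn because its counts are near 0. The grey lines run close together and are mostly lowest in Srsf1-cKO replicate 2, Rps26 and Rps13 drop least, and Rps27l is the only line above 0 in the libraries labelled Srsf1-cKO.

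In the head of the subunit, the part that swivels over the mRNA and meets the tRNAs, 14 of 14 genes fell, with a median log2 fold change of -0.68. Rps3, which lines the entry to the mRNA channel, had 3876, 3216 and 2943 CPM in WT against 1813, 1531 and 1814 in those labelled Srsf1-cKO. The groups did not overlap, and the lower group stood at 51.4% of WT (log2 fold change -0.96, SE 0.144, edgeR adjusted p = 0.00734). Rps3 was the one gene still called without Srsf1-cKO replicate 2. Rps10, another head protein and one of the genes mutated in Diamond-Blackfan anaemia, an inherited failure of red cell production, had 598, 482 and 390 CPM in WT and 262, 230 and 266 in the other group. Its 3 lower values spanned a narrow range far under the WT minimum (log2 fold change -0.96, SE 0.167, edgeR adjusted p = 0.0101). Rps15, whose tail reaches the decoding centre, had 1942, 1717 and 1452 CPM against 973, 825 and 940, again without overlap (log2 fold change -0.90, SE 0.143, edgeR adjusted p = 0.00842).

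Rps19, the gene most often mutated in Diamond-Blackfan anaemia, had 720, 624 and 509 CPM in WT against 387, 335 and 427 in those labelled Srsf1-cKO. The highest of the second group stayed below the lowest WT library (log2 fold change -0.69, SE 0.160, edgeR adjusted p = 0.0216). Rps27a encodes a ribosomal protein fused to ubiquitin and so also supplies the cell with ubiquitin. It had 1409, 1359 and 1148 CPM against 924, 841 and 872, a smaller drop to 67.3% of WT (log2 fold change -0.57, SE 0.126, edgeR adjusted p = 0.0190). Rps25, needed by several viral internal ribosome entry sites, had 934, 818 and 785 CPM against 601, 545 and 611 (log2 fold change -0.53, SE 0.124, edgeR adjusted p = 0.0222). Rps16, which lies along the path of the tRNA, changed by -0.87 on the log2 scale, Rps18 by -0.86, and Rps12, Rps28, Rps20 and Rps29 by -0.68, -0.67, -0.60 and -0.55.

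In the body and platform, which hold the decoding site, 14 of 17 genes fell and Rps27, Rps13 and Rps26 were not called, with a median log2 fold change of -0.71. Fau encodes a ubiquitin-like protein fused to a ribosomal protein and carried the longest pyrimidine run printed above. It had 578, 475 and 315 CPM in WT against 246, 186 and 232 in those labelled Srsf1-cKO. WT replicate 3 stood well below the other WT libraries and still above all 3 of the second group, which reached 48.5% of WT (log2 fold change -1.04, SE 0.218, edgeR adjusted p = 0.0154).

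Rps24, another gene of Diamond-Blackfan anaemia, had 2418, 2213 and 2081 CPM in WT and 1373, 1182 and 1341 in the other group. Its WT libraries were closer together than those of most genes here (log2 fold change -0.78, SE 0.124, edgeR adjusted p = 0.00821). Rpsa, known also as the laminin receptor, had 2748, 2796 and 1982 CPM against 1603, 1400 and 1509. WT replicates 1 and 2 were nearly level and replicate 3 lower, above all 3 of the second group (log2 fold change -0.74, SE 0.156, edgeR adjusted p = 0.0161). Rps6, the substrate of the S6 kinases downstream of mTOR, had 1448, 1365 and 1226 CPM against 914, 758 and 799. The second group stood at 61.2% of WT, near the median of all 32 genes (log2 fold change -0.71, SE 0.129, edgeR adjusted p = 0.0111). Rps2, which borders the mRNA entry, had 1212, 1196 and 835 CPM against 672, 619 and 689, with WT replicate 3 nearer to the second group than to WT (log2 fold change -0.71, SE 0.161, edgeR adjusted p = 0.0202). Rps4x, encoded on the X chromosome, had 2911, 2838 and 2266 CPM against 1811, 1654 and 1574, and the groups stayed apart (log2 fold change -0.67, SE 0.137, edgeR adjusted p = 0.0148). Rps14, whose loss on a deleted chromosome arm marks a form of myelodysplasia in people, fell to 53.7% of WT (log2 fold change -0.90). Rps21, Rps15a, Rps23 and Rps7 changed by -0.83, -0.82, -0.69 and -0.67 on the log2 scale, and Rps9 by -0.65.

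Rps26 and Rps13 moved least. Rps26, which touches the mRNA upstream of the start codon, had 841, 743 and 697 CPM in WT against 669, 592 and 613 in those labelled Srsf1-cKO. The groups did not overlap but lay close (log2 fold change -0.28, 95% interval -0.57 to -0.0016, edgeR adjusted p = 0.142). Rps13, which binds the ribosomal RNA early in assembly, had 692, 674 and 515 CPM against 514, 476 and 492, and WT replicate 3 and Srsf1-cKO replicate 1 were level (log2 fold change -0.34, 95% interval -0.66 to -0.02, edgeR adjusted p = 0.119). Without WT replicate 3 it passed (-0.48, adjusted p = 0.0260).

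Rps27l was the single small-subunit gene to rise. It encodes a near-identical paralog of Rps27, known in other systems as a target of p53. It had 95.4, 74.8 and 93.4 CPM in WT against 122, 127 and 154 in those labelled Srsf1-cKO. All 3 of these lay above all 3 WT libraries, a 1.53-fold difference (log2 fold change 0.62, SE 0.150, edgeR adjusted p = 0.0258). The difference stayed between 0.50 and 0.68 on the log2 scale with any 1 library left out, but it missed the threshold without WT replicate 1 (adjusted p = 0.0790), WT replicate 2 (0.0521), Srsf1-cKO replicate 2 (0.0846) or Srsf1-cKO replicate 3 (0.0577).

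To ask which genes departed from the block, counts were also fitted with the summed counts of the 32 genes as library size, so that 0 means a change equal to the whole. On that scale, where 57.3% of all tested genes were called higher and 1.33% lower, Rps27l (log2 1.32, SE 0.221, edgeR adjusted p = 0.000516) and Rps26 (0.43, SE 0.160, adjusted p = 0.0315) were higher. Rps13 came next (0.38, adjusted p = 0.0572). No small-subunit gene was called lower by edgeR, either at an adjusted p or at an unadjusted p under 0.05, where the count was 0. Rps27l remained called with any 1 library left out (log2 1.20 to 1.50), whereas Rps26 lost its call without WT replicate 1 (adjusted p = 0.0892), WT replicate 2 (0.110), Srsf1-cKO replicate 1 (0.108) or Srsf1-cKO replicate 2 (0.110). Without WT replicate 3 the number called lower was 1. Each gene is part of the sum it was compared with.

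Rps27 itself had few counts, and it met the count minimum through the WT libraries (21, 18 and 10 counts, against 11, 6 and 3). Its lower level is therefore given as a description, since the gene was kept through the group where it is higher. It binds zinc and sits on the outer face of the subunit. Its count level was 2.32, 2.34 and 1.32 CPM in WT against 1.19, 0.670 and 0.282 in those labelled Srsf1-cKO, lower in all 3 but not called (log2 fold change -1.50, 95% interval -2.68 to -0.31, edgeR adjusted p = 0.0781). The second deposited table, which gives FPKM (fragments scaled by transcript length and library size), listed 874, 1887 and 1595 FPKM against 634, 77.2 and 237. There it was called lower (-2.60 on the log2(FPKM + 1) scale, limma adjusted p = 0.0336), and Srsf1-cKO replicate 2 was far below the others. Rps27rt, a retrotransposed copy of Rps27, had 0 counts in all 6 libraries and 8246, 6680 and 5546 FPKM in WT and 5353, 5193 and 4950 in the other group (-0.38, limma adjusted p = 0.111). In transcripts of GENCODE release M21, 57.6% of the 75-base windows of Rps27 occurred in no other gene, and Rps27rt was the gene that shared most of the rest. The 2 tables thus differed greatly over both genes, with few or no counts beside FPKM of 77.2 to 8246, and the cause was not tested.

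The ratio of the 2 paralogs was also compared, as a description only, because Rps27 was kept through its WT counts. The log2 ratio of Rps27l to Rps27 counts was 5.36, 5.0 and 6.15 in WT against 6.69, 7.57 and 9.10 in those labelled Srsf1-cKO, a difference of 2.28 without overlap (exact two-sided permutation p = 0.1, the smallest that 3 against 3 libraries allow). In FPKM the ratio was -1.66, -3.03 and -2.56 against -0.74, 2.43 and 1.01, a difference of 3.32 (exact permutation p = 0.1). In FPKM with Rps27rt added to Rps27, a comparison chosen after the data were seen, the ratio was -5.04, -5.21 and -4.72 against -3.98, -3.66 and -3.44, a difference of 1.30 (exact permutation p = 0.1). All 3 differences had the same sign, and their size depended on the table and on whether Rps27rt was added. The ratios to Rps27 alone rest on a gene for which the tables disagree. With Rps27rt added, the ratio rests mostly on Rps27rt (5193 FPKM against 77.2 for Rps27 in Srsf1-cKO replicate 2). All 3 share Rps27l, so their common sign is not independent.

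Across the whole set the 2 tables gave nearly the same order of changes, with Spearman's rho of 0.983 over the 32 genes, which share the same reads. By FPKM 26 genes fell and Rps27l rose, where 6.39% of 9617 tested genes fell and 12.3% rose. The median there was -0.58 against 0.10 for all tested genes, so that table is scaled differently, and relative to its own median the genes were about as low as in the counts. The other 5 were not called, among them Rps29, Rps13 and Rps26 (limma adjusted p = 0.0754, 0.233 and 0.253). The FPKM calls also rested on single libraries: without WT replicate 1 or Srsf1-cKO replicate 2 the count was 0, with 27 and 26 genes at an unadjusted p under 0.05, and it was 15, 14 and 13 without WT replicate 2, Srsf1-cKO replicate 1 and Srsf1-cKO replicate 3. Per length, in the FPKM the authors deposited, Rps18 (mean 4516 FPKM), Rps4x (4230), Rps20 (3735) and Rps14 (3733) were listed highest and Rps15a (179) and Rps27l (342) lowest. This order depends on the transcript lengths and read assignment behind the FPKM: counts and FPKM together imply 6548 bases for Rps15a and 1.57 bases for Rps27, so it is no firm order of levels. The level did not order the changes (Spearman's rho of the log2 fold change with mean FPKM 0.145 over the 32 genes, a description only).

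**Figure D3:**
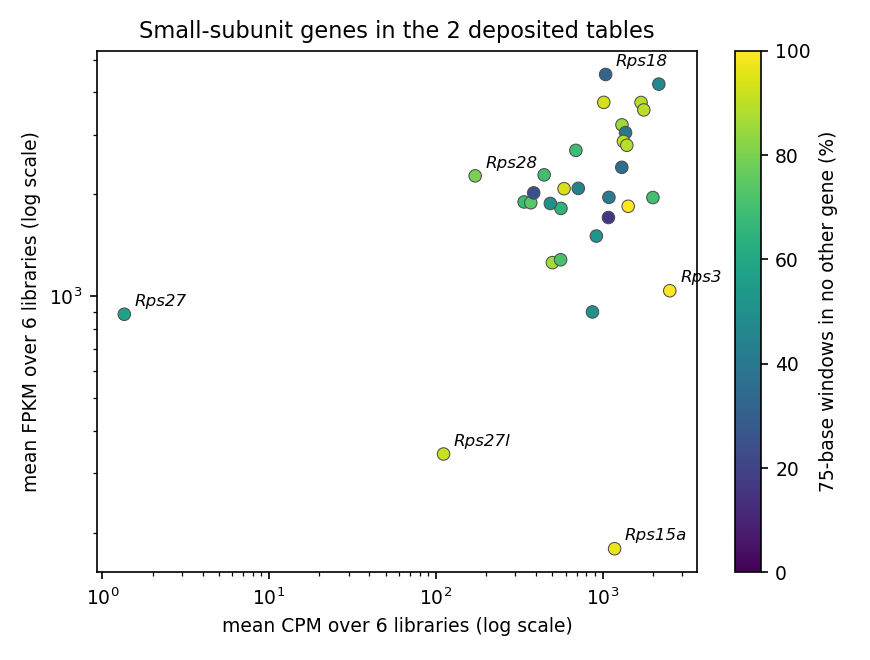
Mean CPM over 6 libraries (x axis, log scale) against mean FPKM (y axis, log scale), each point 1 small-subunit gene, coloured by the percent of its 75-base windows found in no other gene. Rps27 (1.35 CPM, 884 FPKM) and Rps15a (179 FPKM) stand apart from the other points.

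The subunit as a whole kept its balance with the large subunit. Small-subunit counts made up 4.15%, 3.92% and 3.24% of all gene counts in WT, against 2.56%, 2.29% and 2.53% in those labelled Srsf1-cKO. Large-subunit counts made up 6.19%, 5.87% and 5.08% against 3.89%, 3.47% and 3.78%. Neither share overlapped between the groups, with the lowest values in Srsf1-cKO replicate 2. The ratio of small to large counts was 0.670, 0.669 and 0.639 in WT and 0.658, 0.659 and 0.670 in the other group (0.659 ± 0.0179 and 0.662 ± 0.00630, SD, n = 3), and these values overlapped.

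**Figure D4:**
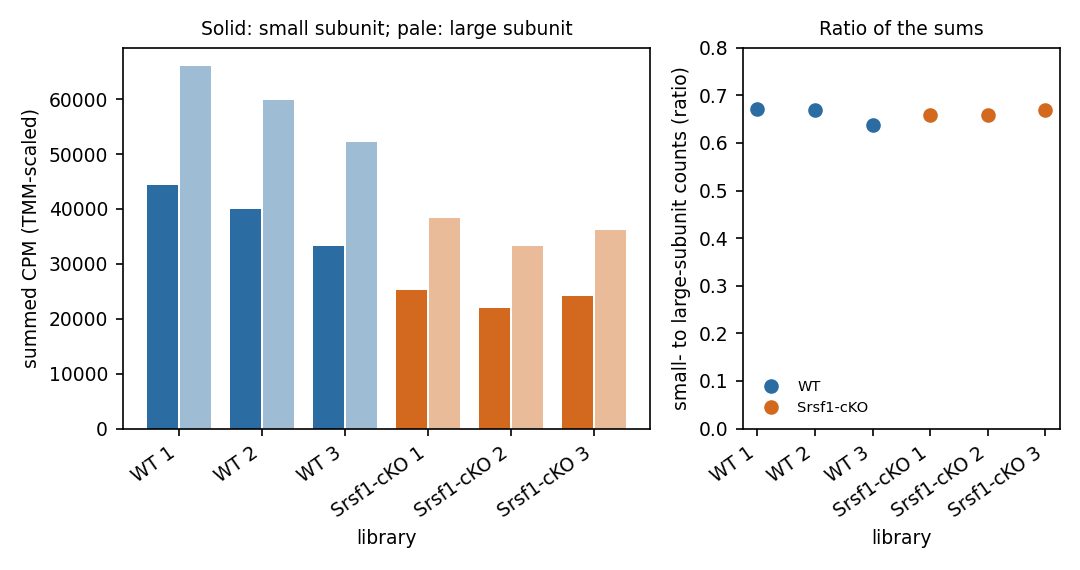
Left, summed CPM of the small-subunit (solid) and large-subunit (pale) genes in each library; right, the ratio of small- to large-subunit counts. Both sums are lower in all 3 libraries labelled Srsf1-cKO, while the ratio stays between 0.639 and 0.670 in all 6.

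Among the 47 tested genes of the large subunit 43 fell, where 9.5% of all tested genes fell, with a median log2 fold change of -0.73. Rpl10, Rpl15, Rpl39l and Rpl7l1 were not called. The count was 7 with WT replicate 1 left out and 6 without Srsf1-cKO replicate 2. Rpl22l1, a paralog of Rpl22, went from 444 to 180 CPM (log2 fold change -1.30, edgeR adjusted p = 0.00358), so the paralogs Rps27l and Rpl22l1 differed in direction. Rpl4, the most abundant, went from 5577 to 3412 CPM (-0.71, adjusted p = 0.0109). Of the other small-subunit proteins that the symbols leave out, Rps3a1 fell from 1776 to 1203 CPM (-0.56, adjusted p = 0.0206), and Gnb2l1, the scaffold Rack1 on the subunit head, changed by -1.01 (adjusted p = 0.00667).

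Translation partners, 31 initiation and elongation factors and related proteins, held 14 genes that fell and 0 called higher by edgeR (1 at an unadjusted p under 0.05), with a median of -0.42. Over all tested genes 9.5% fell. Eef2, which moves the ribosome along the mRNA, fell from 10425 to 5461 CPM (-0.93, edgeR adjusted p = 0.00673). Eef1a1, which delivers tRNAs and whose mRNA also begins with a TOP motif, fell from 18881 to 12686 CPM (-0.57, adjusted p = 0.0173), and Eef1g and Eef1b2 of the same complex changed by -0.79 and -0.66. The count was 3 with WT replicate 1 left out and 2 without Srsf1-cKO replicate 2. A list for the small subunit of the mitochondrial ribosome, which is built separately, moved differently. It was taken by symbol alone (Mrps and a number), and a symbol does not prove a place in that subunit. Of 29 tested genes 7 rose, where 8.9% of all tested genes rose, and the median was 0.26. Here edgeR called 0 lower, with 0 lower at an unadjusted p under 0.05 as well. Mrps2 (1.03, adjusted p = 0.0111), Mrps10 (0.70, 0.0184) and Mrps25 (1.05, 0.0197) led, and Mrps30, the most abundant on the list, changed by 0.09 (0.674). That count was 0 without WT replicate 1 or Srsf1-cKO replicate 2, 4 with WT replicate 3 left out and 2 with Srsf1-cKO replicate 1 left out.

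Factors that assemble the small subunit had few calls. Of 40 tested genes 4 rose and 1 fell, with a median of 0.09, and the share that rose was near the 8.9% of all tested genes. Pno1, which holds the immature end of the subunit's RNA, rose (0.49, edgeR adjusted p = 0.0209), as did Nop56, a core protein of the box C/D snoRNPs (0.59, 0.0250), Nat10, which acetylates the RNA (0.53, 0.0362), and Noc4l (0.41, 0.0498), while Ddx52, a helicase, fell (-0.40, 0.0427). The number that rose was 0 without WT replicate 1, Srsf1-cKO replicate 1 or Srsf1-cKO replicate 2 and 2 without WT replicate 2 or 3. Ddx52 was the one gene called lower, and that number was 0 without any 1 library but WT replicate 3, where it was 2. Among 18 RNA polymerase I genes, which transcribe ribosomal RNA, Taf1d (-0.84, adjusted p = 0.00663) and Polr1d (-0.82, 0.00862) fell, with a median of -0.01. These 2 of 18 were near the 9.5% of all tested genes that fell. The number of RNA polymerase I genes that fell was 1 without WT replicate 1 or Srsf1-cKO replicate 2.

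Of 21 genes that govern Rps6 phosphorylation or TOP mRNAs, 1 fell and 2 rose (median -0.08). That was no more than about the share of all tested genes, of which 9.5% fell and 8.9% rose. Tia1, which encodes an RNA-binding protein that can hold back TOP mRNAs, rose from 9.64 to 37.7 CPM (1.97, edgeR adjusted p = 0.00358), and its relative Tial1 rose by 0.62 (0.0348). Rps6ka1, a kinase of the RSK family, changed by -0.55 (0.0173). Larp1, which binds the TOP motif, changed by -0.08 (0.661), and Rps6kb1, the main S6 kinase, by -0.24 (0.263). The number that rose was 1 without WT replicate 1, WT replicate 3, Srsf1-cKO replicate 1 or Srsf1-cKO replicate 2; the number that fell was 0 without WT replicate 1 or Srsf1-cKO replicate 2 and 2 without WT replicate 2. Among 13 genes of the p53 pathway, which is known to respond to faulty ribosome assembly, Bbc3 (Puma, a killer protein) fell from 24.9 to 6.89 CPM (-1.85, adjusted p = 0.00667) and Trp53 changed by -0.43 (0.0490), with a median of -0.29. These 2 of 13 stand beside the 9.5% of all tested genes that fell, and so few genes give no result about the pathway. edgeR called 0 higher (1 at an unadjusted p under 0.05): Eda2r, a receptor of the tumour necrosis factor family, went from 0.476 to 1.92 CPM (2.04, 0.0728). The number called higher was 1 under the replicate block and under limma-voom. Mdm4 (-0.48, 0.0605) and Mdm2 (-0.56, 0.0821), which hold p53 in check, did not pass, and Trp53inp1, the most abundant, changed by 0.25 (0.355). Of these 13, 1 was called higher without WT replicate 3, and the number called lower was 4 without WT replicate 2 and 1 without WT replicate 1, Srsf1-cKO replicate 1, Srsf1-cKO replicate 2 or Srsf1-cKO replicate 3. 

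**Figure D5:**
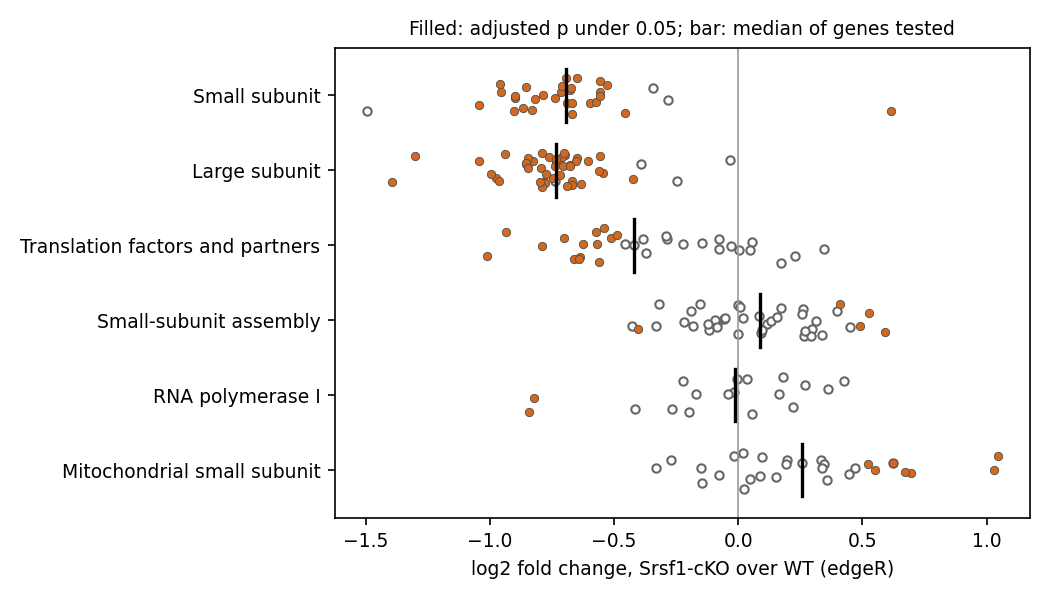
Log2 fold changes (x axis, Srsf1-cKO over WT, edgeR) of the tested genes of 6 lists, each point 1 gene, filled at an adjusted p under 0.05, with a bar at the median. The small and large subunits lie mostly below 0 (medians -0.69 and -0.73), while assembly factors, RNA polymerase I and the mitochondrial list, taken by symbol, have medians of 0.09, -0.01 and 0.26.

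Features of the genes that the symbols do not use were then set beside the changes. The 32 genes lie on 14 chromosomes in GENCODE M21 (GRCm38). In 9 of them 17 small nucleolar RNA genes lie between the ends of the gene on the same strand. The median log2 fold change of these 9 was -0.68, against -0.69 for the others. Genes with the pyrimidine run had a median of -0.80 (10 genes, 7 of which fell) and the 14 matched genes without it -0.69 (13 fell). Genes with the start C had a median of -0.86 (7 genes, 6 of which fell) and the other 17 matched genes -0.68 (14 fell). Outside the ribosomal proteins, 12.2% of 230 tested genes with that start fell and 8.26% rose, against 8.93% and 8.96% of 7734 without it, and their medians were -0.10 and 0.01. The median of these 230 genes was thus much nearer 0 than that of the 7 small-subunit genes with the same start. For the run, 12.9% of 1156 such genes with it fell and 6.49% rose, against 8.37% and 9.36% of 6808 without it.

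Ribosomal protein genes have many processed pseudogenes, and the sources used here do not state how the authors' counts treated shared reads. The share of a gene's 75-base windows found in no other M21 gene had a median of 69.7%. In Rps3, which was among the genes that fell most, it was 100%, and in Rps6 it was 15.9%. The 7 genes at 90% or more had a median log2 fold change of -0.82 and the 25 others -0.69. Rps27l (91.9%) was among the distinct ones, and Rps26 (68.9%) and Rps13 (70.7%) lay near the median. Among non-ribosomal genes under 1 kb, by the length that counts and FPKM imply together, 5.59% of 698 fell and 8.45% rose, with a median of 0.16. Such implied lengths are uncertain, as those of Rps15a and Rps27 above show, and the part of length in the changes was not tested.

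Libraries held 7781283 to 10184268 gene counts, and 14.93% to 17.02% of reads mapped to several places, with overlapping groups. The T cell markers summed to between 2564 and 2841 CPM in WT and to between 2284 and 3290 in those labelled Srsf1-cKO, so the labelled cell type was present in both. Markers of other cells moved with genotype, set here beside the 8.9% of all tested genes that rose. Summed myeloid markers ranged from 3.56 to 11.4 CPM in WT and from 23.1 to 32.8 in the other group (2 of 4 tested rose), B cell markers from 1.19 to 6.89 and from 8.73 to 22.2 (1 of 4 rose), and dendritic cell markers from 61.9 to 95.5 and from 117 to 150 (2 of 4 rose, with Siglech at 0 in all libraries). NK and CD8 markers overlapped (25.3 to 42.8 and 22.4 to 35.1 CPM; Ncr1 and Klra8 at 0), but of the 2 tested Klrk1 rose, from 0, 0.520 and 0 CPM in WT to 4.00, 4.80 and 11.6 (edgeR adjusted p = 0.00862). Heat-shock genes, taken as a sign of handling, summed to between 8415 and 9874 CPM in WT and between 7356 and 7939 in the other group, and 4 of 9 fell, where 9.5% of all tested genes fell. Their part in the lower small-subunit mRNAs was not tested.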

How the data were processed

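Poly(A) RNA of 6 libraries (3 mice per genotype) was read over 75 bases from 1 end with a stranded kit, per the labels. The authors deposited a table of whole-number counts per gene symbol, an FPKM table and a report of alignment metrics. The FPKM unit was read from the values. The file header of the metrics names STAR 2.4.2a, and the submitters' processing notes name STAR, Cufflinks and mm9. Counting program, annotation and strand setting: not given in the sources used here. No per-sample column was left unused (0 columns).

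Counts of all 24047 rows were fitted in edgeR 4.0.16 (R 4.3.3; filterByExpr, TMM scaling, genotype as the only term, quasi-likelihood test, two-sided, Benjamini-Hochberg over 10454 genes, called under 0.05). CPM are counts scaled by TMM library size, given with the SD of 3 libraries. FPKM were fitted in limma 3.58.1 on log2(FPKM + 1), trended, over the 9617 genes at 1 FPKM or more in at least 3 libraries. This scale understates changes of low genes. No 2 replicates agreed within sampling noise (chi-square test of their counts). The fits were tested on simulated data. Alternatives were other scalings and filters, DESeq2 1.42.0, limma-voom, a replicate block, other thresholds and each library left out. Start sites came from RefSeq promoters (GRCm38.p6) and windows from GENCODE M21 transcripts (GRCm38). No coordinate was used with the mm9 files.

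The genes and lists were chosen with earlier results of these data known. Values per library are given for the 5 highest and 5 lowest log2 fold changes, the 4 most and 2 least abundant genes by CPM, and Rps6, Rps27, Rps27l, Rps27a, Fau, Rpsa, Rps3, Rps19 and Rps2. Of each other list up to 4 genes with the smallest adjusted p and the most abundant were eligible. Noc4l, Rps6kb1, Rps3a1, Rps27rt, Mdm2 and the large-subunit genes not called were named after their values were seen. Some genes are counted in the totals but not reported by name. Head and body were assigned from textbook knowledge of the subunit after the data were seen.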

Additional observations from a re-analysis of the deposited data

How the results depend on the processing

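The direction of the small-subunit genes held under every alternative to the main fit of the counts. In each of these fits that tested all 32, 31 of 32 were negative (30 where Rps27 was left out by a mean of at least 5 CPM). Fits relative to the summed small-subunit counts ask a different question and are not among them. The 28 genes that fell also fell under RLE scaling, DESeq2, limma-voom, no filter, and without the Rn45s row. They also fell with the ribosomal protein rows left out of the scaling but still tested. Upper-quartile scaling gave 26 and library size alone 25, and Rps29 lost its call in both. Library size alone moved the median of all genes to 0.11 and the split of calls to 709 lower and 1268 higher, from 993 and 930.

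An adjusted p under 0.01 left 5 small-subunit genes lower and 0 higher (1 higher at an unadjusted p under 0.05), 279 calls over all genes, 11 large-subunit genes lower, 3 translation partners lower, 0 mitochondrial genes higher, assembly factors 0 lower and 0 higher, the S6 kinase and TOP list 0 lower and 1 higher, and 1 p53-pathway gene lower. Under 0.10 there were 2972 calls over all genes, 1 translation partner higher, 2 assembly factors lower, 1 RNA polymerase I gene higher, 2 of the S6 kinase and TOP list lower, and of the p53 pathway 4 lower and 1 higher. Library size alone gave 1 translation partner higher, assembly factors 0 lower and 7 higher, 1 RNA polymerase I gene higher and 1 p53-pathway gene lower. Upper-quartile scaling gave 0 assembly factors and 1 p53-pathway gene lower, and no filter gave 0 assembly factors lower. DESeq2 called 4 p53-pathway genes lower, and limma-voom called 1 lower and 1 higher. The FPKM table with no filter gave 8 small-subunit genes lower (29 at an unadjusted p under 0.05). The cause was not tested.

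With 1 library left out, the small-subunit genes lower ranged from 1 to 29 (28 to 31 at an unadjusted p under 0.05) and higher from 0 to 1, their median from -0.81 to -0.62, and the calls over all genes from 195 to 1989. The large subunit ranged from 6 to 44 lower, translation partners from 2 to 18 lower, and the mitochondrial list from 0 to 6 higher. Assembly factors ranged from 0 to 2 lower and from 0 to 3 higher, RNA polymerase I from 1 to 3 lower, the S6 kinase and TOP list from 0 to 2 lower and from 1 to 3 higher, and the p53 pathway from 1 to 4 lower and from 0 to 1 higher. By FPKM 0 to 28 small-subunit genes were lower and 0 to 1 higher. Relative to the summed small-subunit counts 1 to 3 were higher and 0 to 1 lower. The log2 difference of the Rps27l to Rps27 ratio ranged from 1.63 to 2.83.

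With the replicate block 28 small-subunit genes fell, the same 28, and 1 p53-pathway gene was higher. Calls over all genes were 2270 with the block and 1923 without it. Same-numbered libraries correlated in their deviations from the group means by 0.255, 0.00998 and 0.29. WT replicates 1 and 3 were each closest to the Srsf1-cKO library of the same number, and WT replicate 2 to Srsf1-cKO replicate 1 (0.213). With so few libraries these values cannot decide whether the numbers pair them. With 3 libraries a group, calls near the threshold depend on single libraries. The tables disagree over Rps27, which limits what its values show. RNA levels say nothing here of ribosome protein or translation.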
